A study of Homo sapiens with 5 samples.

Results

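The 10 genes examined here encode the kinases of the DNA replication checkpoint and the proteins that activate them: ATR, ATRIP, ATM, CHEK1, CHEK2, WEE1, CLSPN, TIMELESS, TIPIN and TOPBP1. They were chosen by name, with earlier results of these data known, from the 19970 protein-coding genes of the autosomes and the X chromosome. All 10 were found in the GENCODE 44 annotation. Binding of the retinoblastoma protein (Rb) was mapped by CUT&RUN, in which a nuclease is tethered to the protein by an antibody and cuts out the bound DNA for sequencing. The cells were parental ZR-75-1, an established oestrogen receptor-positive breast cancer line, kept for 4 days in DMSO, the solvent control, or in 500 nM abemaciclib, which inhibits the kinases CDK4 and CDK6. Each treatment had 2 Rb libraries from separate cultures, and 1 library with a non-specific IgG2a antibody came from DMSO-treated cells. All values come from a single cell line at a single dose and time, and the identity of the line was not checked against marker genes, because peak lists hold no expression.

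Rb holds E2F transcription factors in check at promoters of genes needed for DNA replication, and loses this grip when cyclin-dependent kinases phosphorylate it. When a replication fork stalls, single-stranded DNA recruits the kinase ATR through its partner ATRIP, TOPBP1 switches ATR on, and claspin (encoded by CLSPN) with the TIMELESS–TIPIN fork complex passes the signal to CHK1 (CHEK1). ATM with CHK2 (CHEK2) forms the parallel arm that answers double-strand breaks, and WEE1 restrains CDK1 and CDK2 by phosphorylating them. Several of these genes are known E2F targets.

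For each gene, a promoter peak was a called Rb peak that overlapped the window from 2000 bp upstream to 500 bp downstream of any annotated transcription start site (TSS). The Rb lists of the 2 replicates held 1438 and 2582 peaks with DMSO and 13960 and 12234 peaks with abemaciclib. The number of fragments piled up at each summit was recovered from the listed fold enrichment and p-value, and every peak in the 5 lists gave a single whole number whose −log10 p matched the listed value within the rounding of the listed figures plus 0.0001. A level is this pileup divided by the lowest recurring background of its library, which lay between 0.521 and 0.677 fragments and was 0.649 and 0.677 in the DMSO libraries and 0.656 and 0.521 in the abemaciclib libraries. The fewest fragments at a called summit were 6 in each DMSO library and 5 in each abemaciclib library, so a gene without a peak may still carry Rb below that depth. Values given as pairs stand in the order of replicates 1 and 2. In the IgG2a library, 0 of the 10 genes had a peak in the promoter windows or the gene body, and 6 protein-coding genes (0.03%) had one at the promoter.

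In the sequences printed for single genes, positions count from 0 at the first base of the canonical transcript, negative upstream, and the letters run 5′ to 3′ on the strand of the gene. Capitals mark matches on either strand to patterns known from cell cycle promoters. The E2F pattern was TTCCCGC or TTCGCGC or TTGCCGC or TTGGCGC, the CHR (cell cycle genes homology region) pattern TTTGAA, and the pattern of the factor NFY the pentamer CCAAT.

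Does CDK4/6 inhibition place Rb at the promoters of checkpoint kinase genes? With abemaciclib, all 10 genes carried a promoter peak in both libraries, against 5 and 6 genes in DMSO replicates 1 and 2. Both treatments thus shared part of the set: CLSPN, ATM, TIMELESS and WEE1 had a peak in all 4 Rb libraries. CHEK2 had a peak in 3 libraries and lacked it in DMSO replicate 2. CHEK1 and TIPIN also had a peak in 3 libraries and lacked it in DMSO replicate 1. ATR, ATRIP and TOPBP1 had no DMSO peak in either replicate and a peak in each abemaciclib library. The mean was 10 ± 0 genes with abemaciclib and 5.5 ± 0.707 with DMSO (SD, n = 2 libraries each), a difference of 4.5 genes. The two-sided exact permutation test gave p = 0.33, the smallest value that 2 libraries against 2 allow. When each list was shortened to its 1438 strongest peaks, 5 and 4 genes kept a peak with DMSO and 5 and 6 with abemaciclib, and the difference was 1 gene with p = 0.667 in the same exact test.

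The counts were set beside those of all protein-coding genes. A peak in all 4 libraries held for 4 of the 10 genes (40%) and for 6.41% of coding genes, and the same 6.41% had a peak in both DMSO libraries. A peak in both abemaciclib libraries was found at 10 of 10 genes and at 52.7% of coding genes. The pattern with both abemaciclib libraries and 1 DMSO library held for 3 of 10 genes and for 7.39% of coding genes. A peak in both abemaciclib and no DMSO library was found at 3 of 10 genes (30%), a share near the 38.9% of coding genes. Among the 10516 coding genes with a peak in both abemaciclib libraries, 73.8% had no DMSO peak and 12.2% had a peak in both DMSO libraries.

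**Figure D1:**
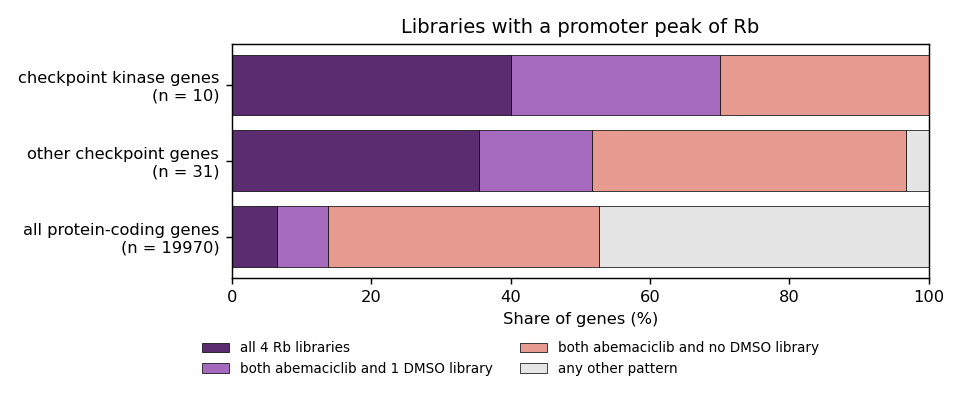
Bars give the share of genes (%) with a promoter peak in all 4 Rb libraries, in both abemaciclib libraries and 1 DMSO library, in both abemaciclib libraries alone, or in any other pattern, for the 10 checkpoint kinase genes, 31 other checkpoint genes and 19970 protein-coding genes. Peaks in all 4 libraries make up 40% of the kinase set, 35.5% of the other checkpoint genes and 6.41% of coding genes.

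ATR and ATRIP, the kinase that senses stalled forks and the partner that brings it to single-stranded DNA, had the lowest mean levels of the set with abemaciclib, although their values overlapped with those of TIPIN. ATR lies on the minus strand of chromosome 3 (GRCh38, 142449007 to 142578733). At its promoter the summit held 31 fragments in abemaciclib replicate 1 and 20 in replicate 2, with no peak in DMSO. These peaks ranked 5211 and 5192 by p-value in lists of 13960 and 12234, with a fold enrichment over local background of 12.8 and 12.2 and a −log10 p of 30.5 and 23.1. Both summits lay upstream of the canonical TSS, at −53 and −125 bp. The stretch of the ATR promoter that holds them is printed because it carries none of the 3 patterns searched for here, and so it has no capitals. It runs from −140 to −21 bp on the gene's strand.
ATR chr3:142578754-142578873: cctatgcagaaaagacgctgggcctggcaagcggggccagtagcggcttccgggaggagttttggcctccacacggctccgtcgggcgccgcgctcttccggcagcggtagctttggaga

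ATRIP, on the plus strand of chromosome 3 (48446710 to 48467645), had 23 and 28 fragments at its promoter summits in abemaciclib replicates 1 and 2. The peak ranked 7647 in replicate 1 and 3580 in replicate 2, a wider gap in place than for the other 9 genes, and the fold enrichment was 8.02 and 16.9. The local background under these summits was 1.99 and 0.716 fragments. The summits lay at −17 and +197 bp, which is 214 bp apart, while those of the other genes were 16 to 72 bp apart between the abemaciclib replicates. An lncRNA gene without a symbol starts 81 bp upstream of ATRIP on the other strand, so peaks here overlap both starts. ATRIP was also the only gene of the 10 with a peak in its body outside the promoter windows, with 19 and 24 fragments in abemaciclib replicates 1 and 2. This peak (chr3:48465741-48466878, both replicates merged) holds 6 start sites of TREX1, which encodes a DNA exonuclease, and its summits came within 77 bp of such a site. Gene-body peaks in both abemaciclib libraries were found at 5.64% of coding genes.

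ATM, the kinase that answers double-strand breaks, had the next-highest level after CLSPN in both abemaciclib libraries. Its summit held 24 and 26 fragments with DMSO and 174 and 138 with abemaciclib. Both abemaciclib values lay above both DMSO values, also as levels, which were 37.0 and 38.4 with DMSO and 265.3 and 264.7 with abemaciclib. Levels separated in this way at all 1281 coding genes with a peak in all 4 Rb libraries. The ATM peak ranked 119 and 110 with DMSO and 121 and 154 with abemaciclib, which is 8.28% and 4.26% of the way down the DMSO lists and 0.867% and 1.26% of the way down the longer abemaciclib lists. The gene starts at chr11:108223044 on the plus strand, and NPAT, which encodes a coactivator of histone genes, starts at −429 bp from the canonical ATM start on the other strand. All 4 summits lay between these starts, at −264, −204, −241 and −260 bp in the order given, so the peak cannot be assigned to either gene. The sequence between them is shown because it holds all 4 summits. It spans −430 to −180 bp, and capitals mark an E2F pattern at −422 to −416 bp and CCAAT matches at −386 to −382 and −188 to −184 bp.
ATM chr11:108222637-108222887: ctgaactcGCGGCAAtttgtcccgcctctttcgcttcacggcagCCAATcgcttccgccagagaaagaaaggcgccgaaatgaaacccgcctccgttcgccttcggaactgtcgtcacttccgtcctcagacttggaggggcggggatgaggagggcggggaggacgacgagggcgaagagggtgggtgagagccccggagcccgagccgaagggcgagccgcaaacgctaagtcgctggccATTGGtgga

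TOPBP1, the activator of ATR, had a peak with abemaciclib alone. Its summits held 51 and 37 fragments, with ranks 2728 and 2896, a fold enrichment of 22 and 17.7 and a −log10 p of 61.5 and 43.0 in abemaciclib replicates 1 and 2. The summits lay at −188 and −212 bp from the canonical TSS (minus strand, chr3:133661941), and an unnamed lncRNA on the other strand starts 15 bp inside the gene. The windows of 200 bp around these summits had the lowest GC content of the set, 56% and 51.5%, with 8 and 7 CpG dinucleotides. Near the TSS, outside those windows, 2 overlapping E2F patterns on opposite strands span −10 to −1 bp, in capitals in the 30 bases from −20 to +9 bp.
TOPBP1 chr3:133661932-133661961: ggccgcgcggTTGGCGCGAAagtcggttcc

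CLSPN, which encodes the adaptor between ATR and CHK1, had the highest level of the 10 genes in every Rb library. Its summit held 45 and 60 fragments with DMSO and 356 and 296 with abemaciclib. These peaks ranked 46 and 50 in DMSO and 16 and 12 in abemaciclib, with a −log10 p of 36.1, 47.4, 565.9 and 498.5. The level was 79 ± 13.7 with DMSO and 555.4 ± 17.7 with abemaciclib (SD, n = 2 each). The groups did not overlap, as at all 1281 coding genes with 4 peaks. The summits lay inside the gene, at +119 and +124 bp with DMSO and at +219 and +203 bp with abemaciclib, and the merged peak (chr1:35769085-35770428) covered the canonical TSS at 35769978 on the minus strand. No other annotated gene starts within it. The CLSPN stretch from −130 to +4 bp is shown for the patterns packed at the TSS, which the peak covers in every Rb library although its summits lie further in. Capitals mark 3 CCAAT matches at −119 to −115, −94 to −90 and −46 to −42 bp and an E2F pattern at −5 to +1 bp, all of them on the other strand.
CLSPN chr1:35769974-35770108: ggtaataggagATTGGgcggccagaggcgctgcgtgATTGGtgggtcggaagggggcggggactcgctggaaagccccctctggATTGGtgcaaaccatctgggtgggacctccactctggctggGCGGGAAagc

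TIMELESS and TIPIN encode partners in the complex that travels with the fork, and their values lay far apart. TIMELESS (minus strand, chr12:56416363-56449426) had 23 and 32 fragments with DMSO and 147 and 111 with abemaciclib. Levels were 41.3 ± 8.38 with DMSO and 218.6 ± 7.93 with abemaciclib (SD, n = 2 each). The groups did not overlap, as at all 1281 coding genes with 4 peaks. Ranks were 138 and 109 with DMSO and 217 and 313 with abemaciclib. TIPIN (minus strand, canonical TSS chr15:66356685) had no peak in DMSO replicate 1, 8 fragments in DMSO replicate 2, and 35 and 23 in abemaciclib replicates 1 and 2. Its ranks were 1620 in DMSO replicate 2 and 3502 and 4045 with abemaciclib, and the TIPIN level was below that of TIMELESS in every library with both peaks. In both abemaciclib libraries TIPIN had a further peak about the start of a longer transcript, at −30377 and −30237 bp from the canonical TSS. That region also holds the start of MAP2K1, which encodes the kinase MEK1, on the other strand, and its pileups of 35 and 23 fragments equalled those at the TIPIN start. The 2 stretches below carry the matches nearest the canonical TSS. TIMELESS is given from −66 to +20 bp, with CCAAT at −53 to −49 bp and an E2F pattern at +9 to +15 bp in capitals. TIPIN is given from −80 to −1 bp, with overlapping E2F patterns on opposite strands at −65 to −56 bp in capitals.
TIMELESS chr12:56449406-56449492: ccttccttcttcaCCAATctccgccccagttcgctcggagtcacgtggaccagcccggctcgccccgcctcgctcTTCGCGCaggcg
TIPIN chr15:66356686-66356765: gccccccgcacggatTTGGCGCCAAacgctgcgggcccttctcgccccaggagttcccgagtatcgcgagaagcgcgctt

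CHEK1, which encodes the main effector kinase of ATR, had 61 and 52 fragments in abemaciclib replicates 1 and 2, with ranks 1444 and 1139. In DMSO replicate 2 it had 2 weak peaks of 6 fragments, the least that was called there, with q-values of 0.0305 and 0.0326, and DMSO replicate 1 had no peak. With a q-value limit of 0.01 the DMSO peaks dropped out. The CHEK1 peaks did not reach the canonical TSS (plus strand, chr11:125625163). The summits of the strongest peaks lay at +619 bp in DMSO replicate 2 and at +635 and +608 bp with abemaciclib, in a region that holds 13 other annotated starts of CHEK1 and the start of an unnamed lncRNA on the other strand. Counting the canonical TSS alone left CHEK1 with a peak in 2 libraries instead of 3. The 30 bases printed below run from +580 to +609 bp and hold an E2F pattern at +589 to +595 bp, close to both abemaciclib summits. CHEK2, the effector kinase of the ATM arm, had 12 fragments in DMSO replicate 1, no peak in DMSO replicate 2, and 103 and 84 fragments in abemaciclib replicates 1 and 2. Its ranks were 1086 in DMSO replicate 1 and 871 and 645 with abemaciclib. The CHEK2 summits lay at −329 bp in DMSO replicate 1 and at −294 and −364 bp with abemaciclib, on the far side of the start of HSCB, an iron–sulphur cluster cochaperone gene on the other strand whose start is 219 bp upstream of the canonical CHEK2 start (chr22:28741820, minus strand). Several CHEK2 transcripts start further upstream, and the peak cannot be assigned to CHEK2 or HSCB. The 30 bases from −390 to −361 bp hold an E2F pattern at −381 to −375 bp, in capitals.
CHEK1 chr11:125625743-125625772: agagctcaaTTCGCGCcgatgcggtccgcc
CHEK2 chr22:28742181-28742210: gataattgcTTCCCGCctgcgacgcagcat

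WEE1, the kinase that restrains CDK1, had a lower level than ATM, CLSPN and TIMELESS among the genes with peaks in all 4 libraries. It had 13 fragments in each DMSO library, and 88 and 58 in abemaciclib replicates 1 and 2. Levels were 19.6 ± 0.575 with DMSO and 122.7 ± 16.2 with abemaciclib (SD, n = 2 each). The groups did not overlap, as at all 1281 coding genes with 4 peaks. The WEE1 peaks ranked 390 and 660 with DMSO and 763 and 1015 with abemaciclib. Summits of the strongest peaks lay at +12 and −101 bp with DMSO and at +12 and −24 bp with abemaciclib. Each abemaciclib library also had a weak peak downstream, with 9 fragments at +923 bp in replicate 1 and 8 at +1249 bp in replicate 2.

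**Figure D2:**
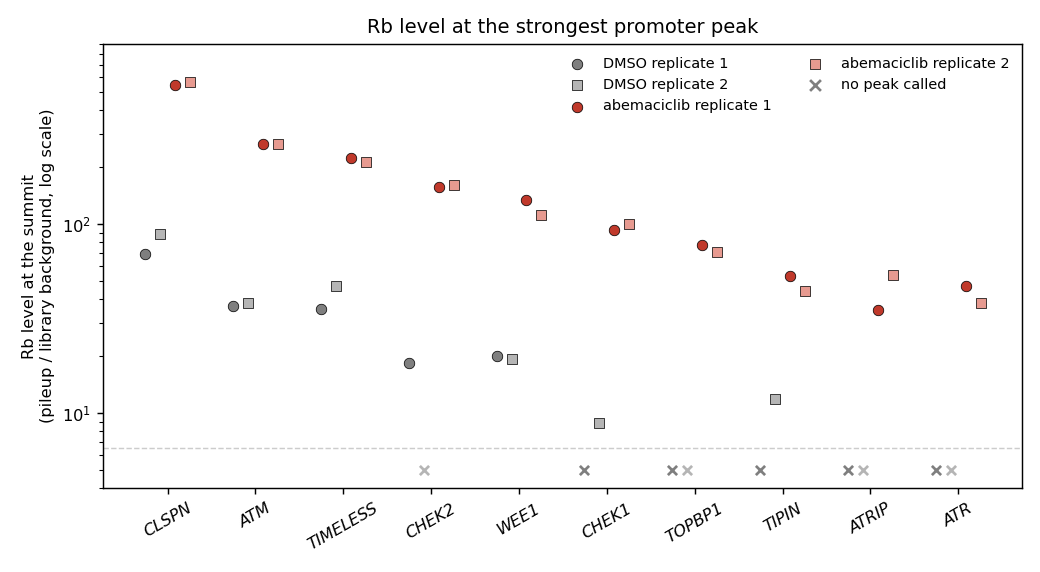
Points give the Rb level at the strongest promoter peak, the fragment pileup divided by the lowest recurring background of the library, on a log axis for the 10 genes in 4 Rb libraries, and crosses below the dashed line mark libraries with no called peak. Genes stand in the order of the mean abemaciclib level, from CLSPN at 555.4 to ATR at 42.8, and wherever DMSO values exist they lie below both abemaciclib values.

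In the order of the mean abemaciclib level, the 10 genes spread over more than a factor of 10. The means ± SD (n = 2) were 555.4 ± 17.7 for CLSPN, 265.0 ± 0.419 for ATM, 218.6 ± 7.93 for TIMELESS, 159.1 ± 2.89 for CHEK2 and 122.7 ± 16.2 for WEE1. They were 96.4 ± 4.76 for CHEK1, 74.4 ± 4.80 for TOPBP1, 48.8 ± 6.54 for TIPIN, 44.4 ± 13.2 for ATRIP and 42.8 ± 6.3 for ATR. The 7 genes from CLSPN to TOPBP1 held the same place in both replicates, and the replicate values of each did not overlap with those of the next gene. TIPIN, ATRIP and ATR overlapped with each other and changed places between replicates. The genes with the highest abemaciclib levels were also those with DMSO peaks, with 2 exceptions. CHEK2, with a peak in 1 DMSO library, stood above WEE1 with peaks in both, and TOPBP1, without a DMSO peak, stood above TIPIN. The fewest fragments at a called DMSO summit were 6, and the part of this limit in the link was not tested.

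The checkpoint kinase genes stood high in the abemaciclib lists. Their median rank by p-value was 1157.5 of 13960 in replicate 1 and 1077 of 12234 in replicate 2, or 8.29% and 8.80% of the way down the list, against 37.9% and 39.96% for coding genes with a promoter peak. With DMSO, the 5 and 6 genes with a peak stood at 9.60% and 14.9%, against 48.6% and 44.6% for coding genes. In abemaciclib replicate 1, 5 of 10 genes (CLSPN, ATM, TIMELESS, CHEK2 and WEE1) were in the top 10% of the list, where 14.4% of coding genes with a peak were found. In abemaciclib replicate 2, CHEK1 joined these and made 6 of 10, against 13.7% of coding genes with a peak.

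For the 4 genes with peaks in all libraries, the ratio of the mean abemaciclib level to the mean DMSO level was 7.03 for CLSPN, 7.03 for ATM, 6.26 for WEE1 and 5.29 for TIMELESS. Ratios of single libraries ran from 6.12 to 8.20 for CLSPN, 6.89 to 7.18 for ATM, 5.56 to 6.99 for WEE1 and 4.50 to 6.33 for TIMELESS. The median of the 4 ratios was 6.64, and that of the 1281 coding genes with 4 peaks was 7.35, with quartiles of 6.01 and 8.94. In all 1281 of these genes (100%) both abemaciclib levels exceeded both DMSO levels, so the separation at the checkpoint kinase genes was the general pattern of these libraries. TIMELESS lay below the lower quartile of the coding genes, and the other 3 genes lay between the quartiles.

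**Figure D3:**
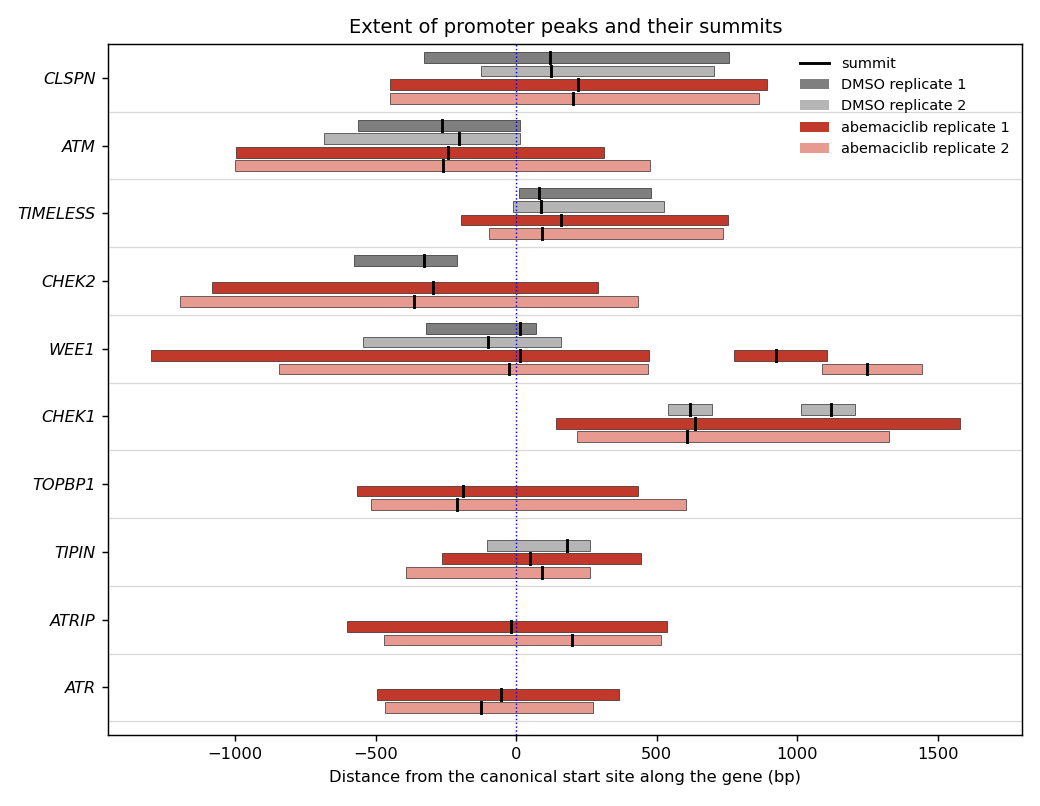
Bars show the extent of each promoter peak within 2000 bp of the canonical TSS of the 10 genes in 4 Rb libraries, in bp along the gene with the TSS at the dotted line, and black ticks are summits. The strongest abemaciclib peak is wider than the DMSO peaks at each gene with peaks in both treatments, the CHEK1 peaks lie downstream of the canonical TSS, and the TIPIN peaks about 30 kb upstream are not drawn.

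Promoter peaks of these genes were also wider with abemaciclib. The median width of the strongest peaks was 470 and 618 bp with DMSO and 1224.5 and 1116 bp with abemaciclib. The difference of the means was 626.25 bp, with p = 0.33 in the two-sided exact permutation test, again the smallest possible. Over the 4 genes with a peak in every library, the medians were 524 and 702.5 bp with DMSO and 1327 and 1313.5 bp with abemaciclib. The widest peak was that of WEE1 in abemaciclib replicate 1, at 1773 bp, and the narrowest was that of CHEK1 in DMSO replicate 2, at 159 bp. Coding genes with a promoter peak had median widths of 286.5 and 277 bp with DMSO and 926 and 863 bp with abemaciclib. Width depends on pileup in peak calling, and the part of the higher pileups in the wider peaks was not tested.

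The E2F, CHR and NFY patterns were also counted, on both strands, within 200 bp windows centred on the abemaciclib summits. The CHR is known as a binding element of the DREAM and MuvB complexes, which include relatives of Rb or their partners. Around the summits of replicate 1, the E2F pattern was present at 4 of 10 genes (CHEK1, CHEK2, WEE1 and TIMELESS), and in 17.5% of 11183 promoter peaks of coding genes. Around the summits of replicate 2, TIPIN joined these, which made 5 of 10 against 17.9% of 10194 peaks. The TIMELESS match was not the same in both, being centred at +209 bp from the TSS in replicate 1 and at +12 bp in replicate 2. The TIPIN match centred at +148 bp lay across the edge of the replicate 1 window. Around the summits of the shorter DMSO lists the E2F share was higher, at 30.1% of 1250 and 27.6% of 2112 promoter peaks. CCAAT was found at 5 and 3 of 10 genes in abemaciclib replicates 1 and 2, against 18.8% and 19.7% of promoter peaks. Around DMSO summits CCAAT was found in 30.9% and 30.1% of promoter peaks. CHR was found at WEE1 in both replicates, against 3.77% and 3.93% of promoter peaks.

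CLSPN and ATM, the genes with the highest levels, had no E2F pattern within 100 bp of either abemaciclib summit. The nearest matches lay at +114 and +130 bp from the CLSPN summits and at −178 and −159 bp from the ATM summits of replicates 1 and 2. In 400 bp windows the E2F pattern was found at 8 and 7 of the 10 genes in replicates 1 and 2, against 34.9% and 35.0% of promoter peaks, with ATR and ATRIP among the genes without a match in both. Around DMSO summits the share in 400 bp windows was 51.8% and 50.8% of promoter peaks. Base composition was close to that of other Rb promoter peaks, with a median GC content of 67.2% and 68.0% in the 200 bp windows of the 10 genes against 69.0% in both replicates for coding genes, and a median of 19 and 20.5 CpG dinucleotides against 19 in both. A pattern match describes the letters in a window and does not show that a factor binds there.

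**Figure D4:**
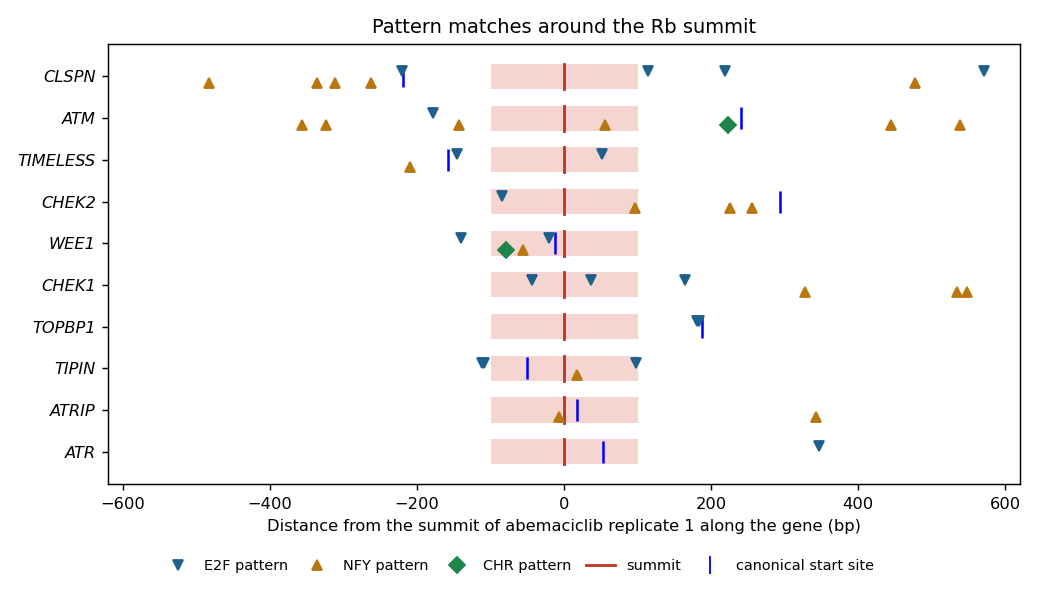
Triangles and diamonds mark the centres of E2F, NFY and CHR pattern matches by distance in bp from the Rb summit of abemaciclib replicate 1, along the gene, with the 200 bp window shaded and the canonical TSS in blue where it lies within the plotted range. CHEK1 has 2 E2F matches in its window, WEE1 has all 3 kinds, and CLSPN and ATM have their nearest E2F matches outside it.

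Are the genes around these kinases in the pathway bound in the same way? A list of 31 other checkpoint genes was also drawn up with earlier results of these data known. Of these 31 genes, 11 had a promoter peak in all 4 Rb libraries (35.5%, against 6.41% of coding genes). In both abemaciclib libraries, 30 of them carried a peak, against 52.7% of coding genes. A peak was found in these and 1 DMSO library at 5 genes (16.1%), against 7.39% of coding genes. It was found in both abemaciclib libraries alone at 14 genes (45.2%), against 38.9% of coding genes. The ubiquitin ligase gene RNF8 had a peak of 5 fragments in abemaciclib replicate 1 and no other. No gene of this list lacked a peak in all 4 libraries. Starts of neighbouring genes within the peaks of these genes were not looked up, so some peaks may not belong to the listed gene.

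The 11 genes with peaks in all 4 libraries came from 4 of the 5 roles in the list, and of the 2 further ATR activators, RHNO1 and ETAA1, 0 had this pattern. RPA3, a subunit of the RPA complex that coats single-stranded DNA, had 43 and 62 fragments with DMSO and 375 and 303 with abemaciclib. It ranked 8 in both abemaciclib libraries, and its levels of 571.8 and 581.3 lay above the 542.9 and 567.8 of CLSPN. Of 8 genes for the 9-1-1 clamp and its loaders, 4 had peaks in every Rb library, namely RFC3, RFC4, RAD9A and RAD1. RAD1, a subunit of the clamp, had 225 and 157 fragments with abemaciclib, and RAD9A, its partner, had 180 and 148. In the ATM arm the genes were NBN, part of the MRN break sensor, and MDC1, a scaffold at breaks, which made 2 of 8. Among 10 effectors and targets they were CDC25A and CDC25C, phosphatases that oppose WEE1, the WEE1-related kinase gene PKMYT1, and CDC7, a kinase that fires origins. PKMYT1 had 158 and 122 fragments and CDC25A 126 and 103 with abemaciclib, more than the 88 and 58 of WEE1.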

How the data were processed

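Rb was profiled by CUT&RUN in 4 libraries of ZR-75-1 cells, with 1 IgG2a library as background, grouped by their titles. The authors aligned paired-end reads to hg38 with Bowtie2 2.3.4.1, removed mitochondrial and blacklisted reads, kept duplicates, and called peaks per library with MACS2 2.2.7.1 at a q-value of 0.05 with matched IgG as control. The IgG2a library used here came from DMSO-treated cells, and which control the abemaciclib lists used was not settled from the sources, which bears on their fold, p-value and local background. The deposited lists give each peak's fold enrichment, a ratio of pileup to local background with 1 added to each, and also the −log10 of its p-value and q-value. The display score and summit offset are also as deposited, and the score was not used further.

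Peaks were joined to GENCODE 44 start sites at an overlap of at least 1 bp and ranked by −log10 p within a list, ties sharing the best rank. Pileups were solved from fold and Poisson p, a step tested on simulated data. Their scaling takes the lowest recurring background (seen at least 20 times) as genome-mean coverage, which is an assumption. Duplicates were kept, so fragments are not independent molecules, and the total read number was not given in the lists. Levels are not normalised to an added standard, so equal backgrounds were assumed between treatments. Sequences were read from GRCh38, with start sites of the Ensembl canonical transcripts as zero. Python 3.11.15, NumPy 2.4.6 and SciPy 1.17.1 were used.

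The study compared reads with DiffBind, which peak lists do not allow. Counts per library and widths were compared by exact permutation tests, two-sided, and other counts were set beside the share of coding genes. The genes and lists were chosen with earlier results of these data known. All 10 genes are described, and of the other checkpoint genes those with a peak in all 4 Rb libraries or in none are named, with RNF8, RHNO1 and ETAA1 added after their values were seen, and individual values of the 11 genes were chosen likewise. Alternatives covered q-value limits, promoter windows, start sites, equal list lengths, IgG2a overlap, left-out libraries, the replicate block and pattern windows.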

Additional observations from a re-analysis of the deposited data

How the results depend on the processing

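Of 69 alternatives for 8 main results, 6 moved a count by over 1.5 times. These 6 leave out the fall of the difference in genes per library from 4.5 to 1 with lists of equal length. Only that difference and the difference in width have a direction that could reverse, and 0 alternatives reversed it. The tests of genes per library and of widths could not pass a threshold, so their p-values say nothing about stability. The difference of 4.5 genes ranged from 1 with lists of equal length, where p = 0.667 in the exact permutation test, to 6 at a q-value limit of 1e-05, and that of 626.25 bp from 552.25 to 707 bp. The number of genes with a peak in both abemaciclib and no DMSO library was 3. It became 6 at a q-value limit of 1e-05, where the DMSO peaks of CHEK1, CHEK2 and TIPIN dropped out, 0 with lists of equal length, and 3 to 5 when single libraries were left out, with 5 without DMSO replicate 2. Equal list lengths lowered the number with a peak in both abemaciclib libraries from 10 to 5. The 4 genes with an E2F pattern near the summit became 8 in 400 bp windows and 1 with TTT in place of TT at the start of the pattern. In abemaciclib replicate 1, these 2 alternatives held for 34.9% and 3.67% of promoter peaks. With the replicate number as a block, the differences stayed at 4.5 genes and 626.25 bp, each with p = 0.5 in the exact permutation test, the smallest that 2 pairs allow. Whether the replicate numbers mark pairs was not settled. The differences between replicates of the 2 treatments had r = -0.0866 across 1281 coding genes with 4 peaks. These genes are not independent replicates and the design has 2 pairs, so this value cannot decide it. The abemaciclib to DMSO ratios without scaling, an alternative chosen after seeing the data, were 6.21 for CLSPN, 6.24 for ATM, 5.62 for WEE1 and 4.69 for TIMELESS. Some alternatives could not move a count of genes with peaks. Leaving out Rb peaks that overlap IgG2a peaks was 1, because the promoter peaks of the 10 genes overlapped 0 IgG2a peaks. Leaving out 1 abemaciclib library was another, because all 10 genes had a peak in each of these libraries. The least pileup called was 6 fragments with DMSO and 5 with abemaciclib, and Rb below that would not appear.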
